A study of Mus musculus with 18 samples.

Results

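The 7 genes described here encode the core of the MHC class II antigen presentation pathway. They were taken from the deposited expression table by symbol, as the rows H2-Aa, H2-Ab1, H2-Eb1, H2-DMa, H2-DMb1, Cd74 and Ciita, which are 7 of the 54532 genes listed there. The study isolated primary cells from the livers of mice after bile duct ligation (BDL), in which the common bile duct is tied off so that bile backs up into the liver, or after a Sham operation. Polyadenylated RNA was sequenced from 18 libraries, 3 for each operation and each of 3 isolates: hepatocytes (named MPH in the labels), epithelial cells of the bile ducts (BECs) and Kupffer-like cells (Kupffer). The sources used here give no strain, sex or age of the mice and no time after surgery, and the stellate cells named in the design are not analysed here. The labels do not state whether the 3 libraries of a group came from different mice, so every p-value below measures the spread between these libraries.

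MHC class II molecules are cell surface heterodimers of an alpha and a beta chain that display peptides from ingested material to CD4 T cells. The chains assemble in the endoplasmic reticulum with the invariant chain, encoded by Cd74, which blocks the groove and directs the complex to endosomes, where the DM heterodimer helps exchange the remaining invariant chain fragment for antigenic peptide. Ciita is the transactivator that binds no DNA itself but is recruited to the factors assembled on the class II promoters, and interferon gamma induces it in many cell types. In liver the pathway is best known from macrophages, dendritic cells and B cells, and sinusoidal endothelial cells and cholangiocytes can also carry class II.

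Class II promoters hold an X box and a Y box at a fixed distance, and the sequences below are shown because this arrangement is what ties most of these genes to Ciita. RefSeq promoter windows of 300 bases (GRCm38.p6) were given for 4 of the 7 members. They were searched on both strands for AGNAAC, a core of the X box, and for GATTGG, the Y box core, which do not overlap where they are paired. AGNAAC was found in 48.1% and GATTGG in 16.1% of all 32851 windows. The 2 together on the same strand, with the starts 25 to 45 bases apart, were found in 132 windows, or 0.402%. Those windows included 2 members, H2-Eb1 and H2-DMb1, and 3 further class II genes, H2-Eb2, H2-Oa and H2-Ob. The stretches are written 5′ to 3′ along the gene, with both cores in capitals.
H2-Eb1: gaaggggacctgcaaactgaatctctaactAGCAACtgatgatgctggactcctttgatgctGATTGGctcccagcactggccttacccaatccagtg
H2-DMb1: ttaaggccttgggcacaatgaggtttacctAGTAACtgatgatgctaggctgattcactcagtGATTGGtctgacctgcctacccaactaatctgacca
H2-Eb2: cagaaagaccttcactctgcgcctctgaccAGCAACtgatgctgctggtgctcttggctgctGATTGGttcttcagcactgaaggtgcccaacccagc
H2-Oa: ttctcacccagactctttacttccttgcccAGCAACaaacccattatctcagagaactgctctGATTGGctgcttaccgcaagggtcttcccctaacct
H2-Ob: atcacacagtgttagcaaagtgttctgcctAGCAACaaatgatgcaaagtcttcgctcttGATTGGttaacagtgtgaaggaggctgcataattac
H2-Aa: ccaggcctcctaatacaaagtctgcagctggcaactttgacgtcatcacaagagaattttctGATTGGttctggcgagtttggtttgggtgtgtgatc

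The H2-Eb1 stretch lies at chr17:34305745-34305842 on the plus strand, with its cores starting 92 and 60 bases before the RefSeq start. The H2-DMb1 stretch lies at chr17:34153066-34153164 on the plus strand, with its cores 95 and 62 bases before the start. The starts of the cores are thus 32 and 33 bases apart in these members, and 32, 33 and 30 bases apart in H2-Eb2 (chr17:34325512-34325609), H2-Oa (chr17:34092272-34092370) and H2-Ob (chr17:34238787-34238882), all on the plus strand. H2-Aa, on the minus strand at chr17:34287837-34287934, held GATTGG 49 bases before its start and no AGNAAC. The window of H2-DMb2, a further class II gene, held GATTGG 91 bases before its start and no AGNAAC. Neither of the H2-DMa windows held the pair, and H2-Ab1, Cd74 and Ciita have no window in the table. The gamma interferon activated site TTCNNNGAA, present in 8.30% of all windows, was in none of the member windows. H2-DMb2 held it 218 bases before its start. A match, or its lack, describes only these letters in these windows.

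In GRCm38 the 5 H2 genes lie together on chromosome 17. H2-DMa spans 34119541 to 34139101, H2-DMb1 34153072 to 34160230, H2-Ab1 34257689 to 34269419 and H2-Eb1 34305867 to 34316674, all on the plus strand, and H2-Aa spans 34282744 to 34287823 on the minus strand. Cd74 lies on chromosome 18 at 60803848 to 60812652 and Ciita on chromosome 16 at 10480059 to 10528418, both on the plus strand. Exons of H2-DMa share 360 bases with Brd2 and exons of Ciita share 329 bases with Dexi on the opposite strand, and the sources used here do not say whether the counting used strand.

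Values are the deposited FPKM, in which fragments are divided by transcript length and by library size, so levels can be compared between genes. The smallest steps between values imply 15451625 to 20577889 reads in genes per library, and Ciita, the least abundant member, rested on 18 reads in MPH BDL replicate 3 and on 1086 in Kupffer Sham replicate 3. The same steps imply that MPH values were divided by a library size of 0.517 to 0.741 times those reads, against 0.934 to 1.22 times in the other cells, so MPH levels stand higher in the deposited scale than per read. The labelled cell types matched their leading markers: the summed level of 10 hepatocyte markers was 40117 to 111036 FPKM in MPH, that of 10 biliary markers 2692 to 3992 in BECs and that of 12 Kupffer cell markers 2182 to 11070.0 in Kupffer libraries. The MPH libraries also held the Kupffer cell markers at 1170.3 to 5851 FPKM, and BECs held them at 189.6 to 355 FPKM. Of these, Id3 alone was at 94.1 to 239 FPKM in BECs. The 12 sinusoidal endothelial markers summed to 238 to 1096 FPKM in MPH and 119 to 296 FPKM in BECs. In Kupffer libraries they summed to 545 to 2188 FPKM. BECs also held 10 stellate and fibroblast markers at 625 to 1662 FPKM. In such bulk samples fewer cells of a type and less RNA per cell cannot be told apart.

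**Figure D1:**
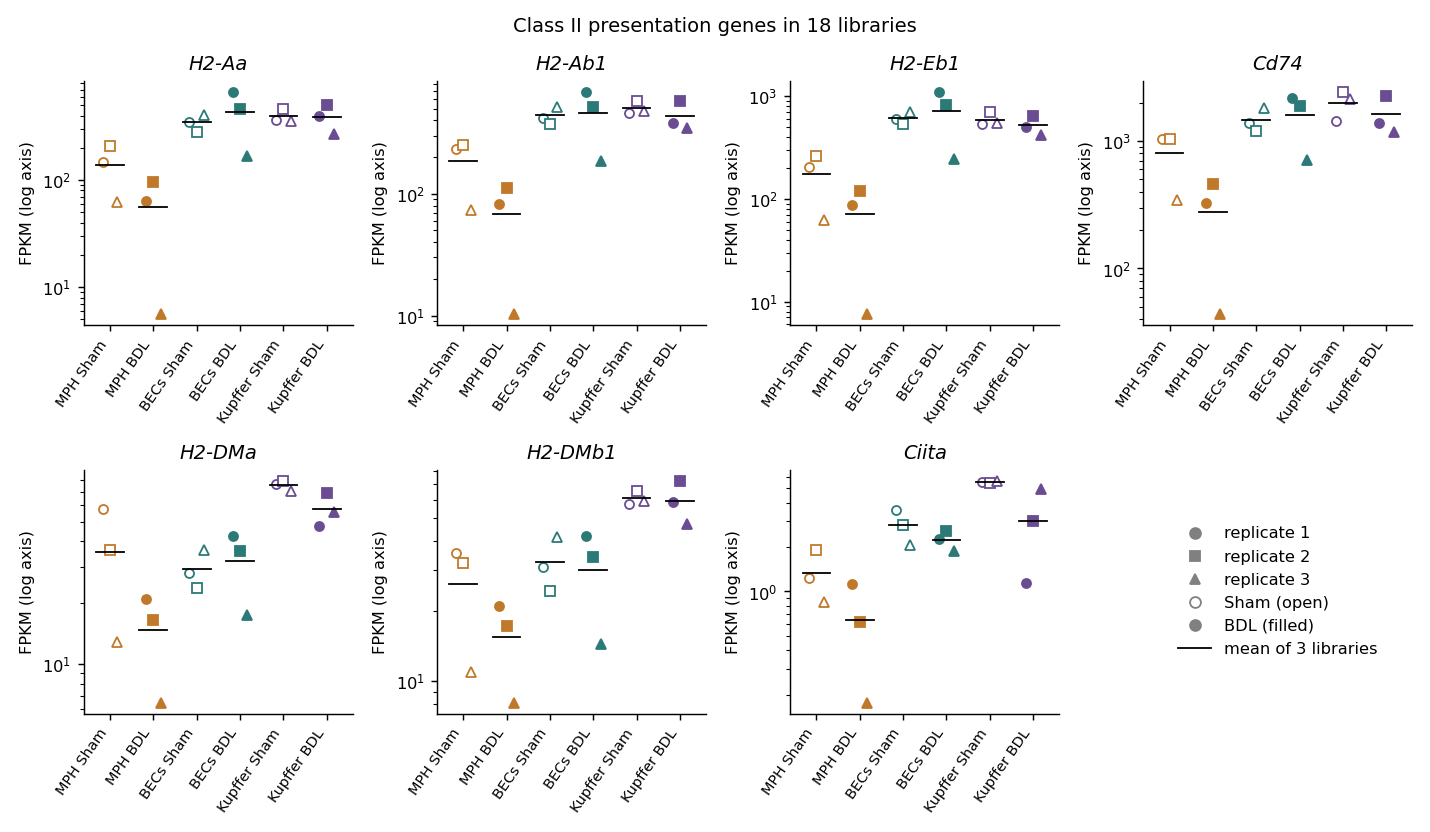
FPKM of each member on a log axis in the 18 libraries, by cell type and operation, with the mean of 3 libraries as a line. MPH lies lowest for H2-Aa, H2-Ab1, H2-Eb1 and Cd74, MPH BDL replicate 3 is the lowest library for every member, and BECs reach the Kupffer level for H2-Aa, H2-Ab1, H2-Eb1 and Cd74 but not for H2-DMa and H2-DMb1 in Sham livers.

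Class II transcripts were abundant in BECs and Kupffer cells and lower in MPH. H2-Aa, the I-A alpha chain, stood at 349, 283 and 404 FPKM in the 3 BECs Sham libraries and at 362, 466 and 358 FPKM in Kupffer Sham. In MPH Sham it stood at 147, 208 and 62.2 FPKM. The MPH Sham values lay below all those of the other cells, and the BECs and Kupffer ranges overlapped.

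H2-Ab1, the I-A beta chain that pairs with H2-Aa, was at 231, 249 and 74.2 FPKM in MPH Sham, at 422, 376 and 519 FPKM in BECs Sham and at 457, 582 and 478 FPKM in Kupffer Sham. H2-Eb1, the I-E beta chain, was at 203, 259.8 and 62.3 FPKM in MPH Sham, at 595, 538 and 699.8 FPKM in BECs Sham and at 535, 699 and 545 FPKM in Kupffer Sham. For both chains BECs and Kupffer overlapped and MPH lay below them.

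Cd74, the invariant chain, was the most abundant member in every library. It was at 1036, 1028 and 343 FPKM in MPH Sham, at 1389, 1198 and 1815 FPKM in BECs Sham and at 1438, 2419 and 2153.2 FPKM in Kupffer Sham. The highest MPH value was below the lowest BECs value, and BECs and Kupffer overlapped.

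The DM chains, which edit the peptide cargo, followed another order. H2-DMa was at 57.7, 36.1 and 12.8 FPKM in MPH Sham, at 27.9, 23.6 and 36.4 FPKM in BECs Sham and at 76.1, 79.2 and 70.8 FPKM in Kupffer Sham. H2-DMb1 was at 35.4, 32.1 and 11.0 FPKM in MPH Sham, at 31.0, 24.5 and 41.6 FPKM in BECs Sham and at 57.9, 65.6 and 59.3 FPKM in Kupffer Sham. Here Kupffer stood above both other cells without overlap, and MPH and BECs overlapped.

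Ciita, the transactivator, was at 1.23, 1.91 and 0.850 FPKM in MPH Sham, at 3.58, 2.82 and 2.08 FPKM in BECs Sham and at 5.52, 5.48 and 5.63 FPKM in Kupffer Sham. The 3 cell types did not overlap, and the Kupffer Sham libraries lay close together, at 5.55 ± 0.0762 FPKM (SD, n = 3).

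Tests of these differences used limma on log2(FPKM + 1), with a gene called when its p-value adjusted over all genes tested (Benjamini-Hochberg) was under 0.05. In Sham livers 4 of 7 members were lower in MPH than in BECs (H2-Aa, H2-Ab1, H2-Eb1 and Ciita), beside 58.3% of all genes called in that comparison in either direction. The largest difference was that of H2-Eb1, at −2.02 ± 0.46 (log2, SE; limma adjusted p = 0.00478). H2-DMa differed by 0.06, with a 95% interval from −0.95 to 1.07, and its sign turned with the scaling, to −1.04 at a common FPKM sum, −0.49 after quantile normalization and −0.65 scaled to recovered reads. Without MPH Sham replicate 3 it was 0.65 (limma adjusted p = 0.0492). At a common FPKM sum H2-DMb1 (−1.52) and Cd74 (−2.17) were called as well, which made 6 of 7. At that scaling 10915 of 15099 genes were called between MPH and BECs. That scaling also moved the median over all genes from 0.01 to −0.83 between MPH and BECs and from −0.05 to −0.91 between MPH and Kupffer cells. All 7 members were lower in MPH than in Kupffer cells, beside 56.8% of all genes, with log2 differences from −1.29 for H2-DMa to −1.98 for H2-Eb1, and Ciita had the smallest limma adjusted p, 2.33e-04. BECs were lower than Kupffer cells for 2 of 7 members, beside 43.9% of all genes. These were H2-DMa (−1.35 ± 0.45, limma adjusted p = 0.0353) and Ciita (−0.79 ± 0.20, limma adjusted p = 0.010). For H2-Aa, H2-Ab1 and H2-Eb1 the log2 differences between BECs and Kupffer cells were −0.20, −0.21 and 0.05, and the intervals ran from −1.17 to 1.10. The shares of genes called show how many genes differ between these cell types, so the counts of members say nothing particular to the pathway. Leaving out 1 library gave 3 to 5 members in the first of these comparisons and 4 to 7 in the second (4 without Kupffer Sham replicate 2). In the third it gave 1 to 3, and 1 was left without any 1 of the BECs Sham or Kupffer Sham libraries. Over all genes those fits called 6349 to 8196, 6507 to 8251 and 4349 to 7085, of 13576 to 14166 tested.

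After ligation the log2 distance between MPH and the other cells was larger in these values for each member except Ciita against Kupffer cells, which stood at −1.52 in Sham and −1.22 in BDL livers. These changes are the responses tested further on, where none was called. H2-Aa was at 64.0, 96.9 and 5.62 FPKM in MPH BDL, at 663, 460.5 and 167 FPKM in BECs BDL and at 397, 504 and 267 FPKM in Kupffer BDL. In BDL livers 5 of 7 members were lower in MPH than in BECs (H2-Aa, H2-Ab1, H2-Eb1, Cd74 and Ciita), beside 46.0% of all genes. H2-DMa and H2-DMb1 were called too, as lower in MPH, at a common FPKM sum (−2.09 and −1.86) and scaled to recovered reads (−1.83 and −1.60), which made 7 of 7 under either. Over all genes those scalings called 9806 of 14784 and 8521 of 14433, and moved the median from −0.02 to −0.83 and −0.62. All 7 were lower in MPH than in Kupffer cells, beside 28.4% of all genes. Between BECs and Kupffer cells 0 of 7 were called by limma, beside 31.3% of all genes, and 1 of 7, H2-DMb1 at −1.06 (limma adjusted p = 0.105), had an unadjusted p under 0.05. Without BECs BDL replicate 1 the first count was 0, beside 4394 of 13433 genes. It was 1 without BECs BDL replicate 2, beside 4345 of 13433 genes. Without Kupffer BDL replicate 1 the second count was 3, beside 3139 of 14062 genes. It was 2 without Kupffer BDL replicate 2, beside 2610 of 14013 genes.

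The cell type difference could also be read against markers of the cells that classically carry class II. BECs reached the Kupffer level of H2-Aa, H2-Ab1 and H2-Eb1 while their Kupffer cell markers summed to 218 to 355 FPKM in Sham livers, against 5286 to 6515 FPKM in Kupffer Sham. Most of that BECs sum was Id3, at 135, 156 and 239 FPKM in BECs Sham and 317, 331 and 327 FPKM in Kupffer Sham. The 11 dendritic cell markers of BECs summed to 54.7 to 63.4 FPKM, against 118 to 127 FPKM in Kupffer Sham. Within that list the markers went both ways, with 4 of 11 called higher in BECs than in Kupffer Sham (Flt3, Xcr1, Itgae and Cd209a) and 5 called lower (Zbtb46, Clec9a, Batf3, Ccr7 and Siglech). Ccr7, at 21.2, 16.8 and 20 FPKM in BECs Sham and 46.5, 60.7 and 54.5 FPKM in Kupffer Sham, made up much of the sum. The 10 B cell markers of BECs summed to 7.53 to 29.7 FPKM, against 185 to 217 FPKM. Sinusoidal endothelial markers summed to 239 to 296 FPKM in BECs Sham, against 1799.7 to 2188 FPKM in Kupffer Sham and 239 to 1096 FPKM in MPH Sham. In MPH Sham the Kupffer cell markers reached 1656 to 5851 FPKM, a range that overlaps that of Kupffer Sham, beside H2-Aa at 62.2 to 208 FPKM. The part of these markers in the class II levels was not tested.

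Ratios between members within a library do not depend on how the library was scaled, and they were compared between cell types. H2-Eb1 to H2-Ab1, the balance of the I-E and I-A beta chain transcripts, was 0.879, 1.04 and 0.840 in MPH Sham and 1.07, 1.07 and 0.733 in MPH BDL. It was 1.17, 1.2 and 1.14 in Kupffer Sham and 1.32, 1.13 and 1.22 in Kupffer BDL. In BECs it was 1.41, 1.43 and 1.35 in Sham and 1.61, 1.58 and 1.34 in BDL. The 6 libraries of each cell type did not overlap with those of the others, and the order MPH, Kupffer, BECs was the same under both operations. The geometric means were 0.929, 1.19 and 1.45. H2-Ea, the I-E alpha chain, is not in the table, and H2-Ea-ps reached at most 0.523 FPKM, in Kupffer Sham replicate 2. The ratio therefore does not describe the balance of I-E and I-A molecules.

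The ratios were tested by permuting the cell type label exactly within each operation, in 15 comparisons of 5 ratios that were tested after their values had been seen. The smallest p such a test can give is 0.00500. The permutation treated all libraries of an operation as exchangeable and did not hold the title numbers that 3 pairs of MPH and Kupffer libraries share. All 3 comparisons of H2-Eb1 to H2-Ab1 reached it (exact permutation test, two-sided, adjusted p = 0.0125 over the 15), with log2 differences of −0.64 between MPH and BECs, −0.36 between MPH and Kupffer cells and 0.28 between BECs and Kupffer cells.

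H2-DMa to H2-Ab1, the amount of the editor per amount of the class II beta chain, separated BECs from the rest. It was 0.0660, 0.0628 and 0.0701 in BECs Sham and 0.0623, 0.0692 and 0.0953 in BECs BDL. It was 0.166, 0.136 and 0.148 in Kupffer Sham and 0.126, 0.120 and 0.161 in Kupffer BDL. In MPH it was 0.250, 0.145 and 0.173 in Sham and 0.253, 0.149 and 0.628 in BDL, where replicate 3 stood apart. The log2 difference was −1.02 between BECs and Kupffer cells and 1.71 between MPH and BECs, without overlap of 6 and 6 libraries (exact permutation test, two-sided, adjusted p = 0.0125 for each). Between MPH and Kupffer cells the log2 difference was 0.70 (exact permutation adjusted p = 0.0964), and it reached adjusted p = 0.0400 without MPH Sham replicate 2 and 0.0300 without MPH BDL replicate 2. With a library left out, p was adjusted over fewer comparisons, those that involve MPH, so these values are not directly comparable with 0.0964.

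Cd74 to H2-Ab1 was the steadiest of the 5 ratios, between 3.14 and 4.63 over the 18 libraries, while Cd74 itself ranged 55.1-fold. Its geometric mean was 4.26 in MPH, 3.78 in Kupffer cells and 3.43 in BECs, and MPH and BECs differed without overlap (log2 difference 0.31, exact permutation adjusted p = 0.0125). H2-Aa to H2-Ab1, the alpha to beta balance of I-A, was 0.545 to 1.05 over the 18 libraries. Its log2 difference between BECs and Kupffer cells was 0.03 (exact permutation adjusted p = 0.745).

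**Figure D2:**
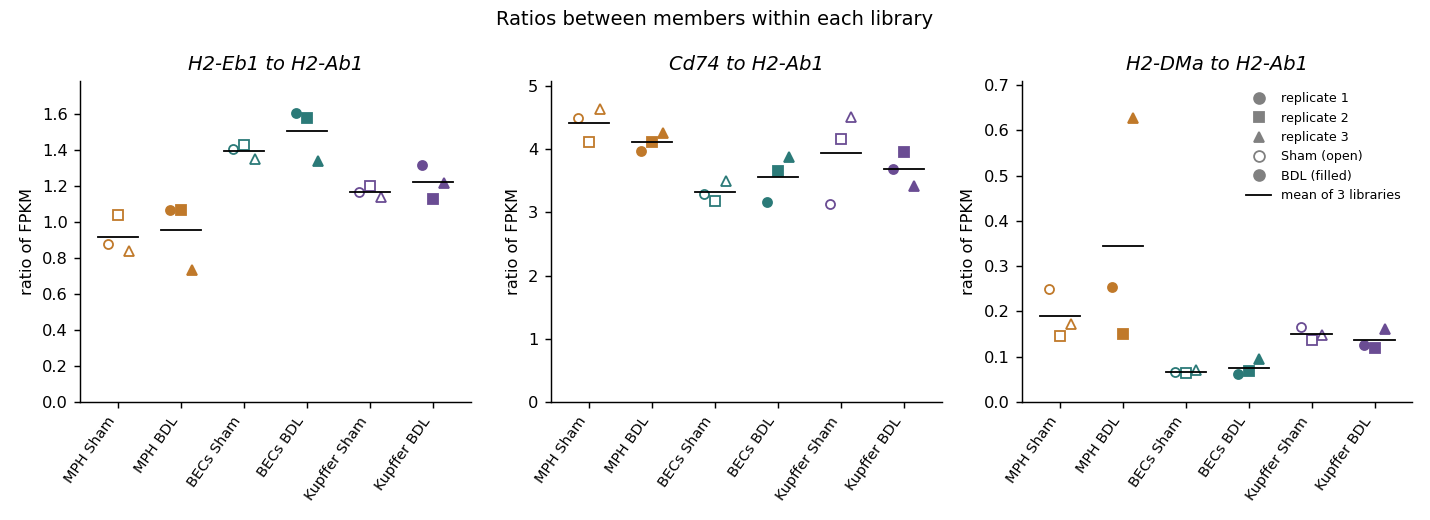
Ratio of FPKM between members within each library (vertical axes from 0), by cell type and operation, with the mean of 3 libraries as a line. H2-Eb1 to H2-Ab1 separates the 3 cell types without overlap, Cd74 to H2-Ab1 stays between 3.14 and 4.63, and H2-DMa to H2-Ab1 is lowest in BECs and reaches 0.628 in MPH BDL replicate 3.

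Ligation itself gave no call for any member in any cell type. In MPH all 7 values were negative, with a median log2 difference of −1.74 beside −0.06 over all genes, and 0 of 7 were called beside 1.57% of all genes. The intervals were wide. H2-Ab1 went from 231, 249 and 74.2 FPKM in Sham to 82.5, 111 and 10.3 FPKM in BDL, a log2 difference of −1.79 with a 95% interval from −3.98 to 0.40 (limma adjusted p = 0.30). H2-Eb1 was at 87.9, 119 and 7.56 FPKM in MPH BDL, a log2 difference of −1.74 (95% interval −4.24 to 0.76). H2-Aa differed by −1.84 (95% interval −4.26 to 0.57).

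Cd74 was at 327, 457 and 43.9 FPKM in MPH BDL, against 1036, 1028 and 343 FPKM in Sham. Its log2 difference of −1.92 (95% interval −4.11 to 0.27, limma adjusted p = 0.272) was the largest of the 7. H2-DMa was at 20.9, 16.5 and 6.47 FPKM and H2-DMb1 at 21.1, 17.2 and 8.09 FPKM in MPH BDL, with log2 differences of −1.13 and −0.66. Ciita was at 1.13, 0.617 and 0.176 FPKM, with a log2 difference of −0.52 (95% interval −1.20 to 0.15). For all 7 genes the Sham and BDL ranges overlapped through the low value of MPH Sham replicate 3, where 30.2% of all genes did not overlap. No member had an unadjusted p under 0.05.

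MPH BDL replicate 3 was the lowest of the 18 libraries for every member. It held 6.98% of the mean of the other MPH BDL libraries for H2-Aa, 7.32% for H2-Eb1, 10.6% for H2-Ab1 and 11.2% for Cd74, but 34.6% for H2-DMa and 42.3% for H2-DMb1. Without it the log2 differences were −0.65 for H2-Aa, −0.76 for H2-Ab1, −0.54 for H2-Eb1 and −0.89 for Cd74. In the same library the Kupffer cell markers summed to 1170.3 FPKM, against 3268 and 4265 FPKM in the other MPH BDL libraries, and the dendritic cell markers to 6.01 FPKM against 15.5 and 14.0 FPKM. The sinusoidal endothelial markers summed to 238 FPKM against 465 and 755 FPKM. The hepatocyte markers summed to 110240.5 FPKM, against 49454 and 61627 FPKM. MPH Sham replicate 3, at 26.9% (H2-Eb1) to 54.1% (Ciita) of its group's other libraries, likewise had the lowest Kupffer cell marker sum of its group, 1656 FPKM against 5851 and 2752 FPKM, the lowest sinusoidal endothelial sum, 239 FPKM against 1059.6 and 1096 FPKM, and the highest hepatocyte marker sum, 111036 FPKM. The part of these markers in the MPH differences was not tested.

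In BECs the differences lay around 0 with all libraries, and this rested on BDL replicate 3. H2-Eb1 went from 595, 538 and 699.8 FPKM to 1099, 821 and 246 FPKM, and its log2 difference was −0.00 with a 95% interval from −1.30 to 1.29. In the BDL group replicates 1 and 2 were above every Sham library and replicate 3 below all of them, and the same pattern was seen for H2-Aa, at 663, 460.5 and 167 FPKM, and for Cd74, at 2161, 1892 and 711 FPKM. H2-Ab1 was at 682, 519 and 184 FPKM, with a log2 difference of −0.11 (95% interval −1.26 to 1.03). Without replicate 3 the log2 differences were 0.64 for H2-Eb1, 0.69 for H2-Aa, 0.48 for Cd74, 0.45 for H2-Ab1, 0.42 for H2-DMa and 0.25 for H2-DMb1, and still none was called (limma adjusted p = 0.153 to 0.599). In BECs 0 of 7 members were called (limma, smallest unadjusted p = 0.257), beside 7.66% of all genes, and none had groups that did not overlap, beside 31.8% of all genes.

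H2-DMa was at 42.5, 35.9 and 17.5 FPKM and H2-DMb1 at 42.0, 34.1 and 14.4 FPKM in BECs BDL. Ciita, at 2.26, 2.59 and 1.89 FPKM in BECs BDL against 3.58, 2.82 and 2.08 FPKM in Sham, differed by −0.22 (log2, 95% interval −0.65 to 0.21). BECs BDL replicate 3, which was the lowest of its group for every member, was also the lowest for 10 of 11 dendritic cell markers and 10 of 12 Kupffer cell markers. Itgax, for one, was at 3.16 FPKM there against 20.7 and 13.7 FPKM, and the Kupffer cell markers summed to 189.6 FPKM against 288 and 262 FPKM. Within those sums Id3 was at 131 FPKM there, against 143 and 94.1 FPKM. Ccr7, at 64.1 FPKM against 73.0 and 13.6 FPKM, was the dendritic exception. Its B cell markers were higher, at 98.7 FPKM against 20.9 and 12.7 FPKM. The part of these markers in the result was not tested.

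In Kupffer cells no member was called, and the BDL libraries of Ciita and H2-DMa all lay below their Sham libraries while those of the other 5 members overlapped with Sham. H2-Aa was at 397, 504 and 267 FPKM in Kupffer BDL, with a log2 difference of −0.06 (95% interval −0.78 to 0.66). H2-Ab1 was at 378, 574 and 347 FPKM (−0.25, 95% interval −0.91 to 0.41) and H2-Eb1 at 497, 646 and 424 FPKM (−0.19, 95% interval −0.82 to 0.44). Cd74 was at 1391, 2274 and 1186 FPKM, with a log2 difference of −0.33 and a 95% interval from −1.24 to 0.58, and −1.06 after quantile normalization, not called under either.

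Ciita was at 5.52, 5.48 and 5.63 FPKM in Kupffer Sham and at 1.15, 3.00 and 4.93 FPKM in Kupffer BDL. The difference of −0.82 ± 0.36 (log2, SE) had a 95% interval from −1.69 to 0.05 and was not called (limma adjusted p = 0.229). Without Kupffer BDL replicate 3 it was −1.16 (limma adjusted p = 0.0416), and without Kupffer BDL replicate 1 it was −0.43. Without replicate 3 the calls over all genes also rose, to 2272 of 12364 from 494 of 12748 with all libraries. H2-DMa was at 76.1, 79.2 and 70.8 FPKM in Sham and at 47.7, 68.7 and 55.7 FPKM in BDL, a log2 difference of −0.40 (95% interval −0.85 to 0.05, limma adjusted p = 0.245). H2-DMb1, its partner, was at 58.6, 72.5 and 47.5 FPKM in BDL, with a log2 difference of −0.05 (95% interval −0.53 to 0.42). In Kupffer cells 0 of 7 members were called, beside 3.88% of all genes, and the 2 members without overlap stand beside 32.3% of all genes without overlap. With each library scaled to the same FPKM sum the median over all genes moved from 0.03 to −0.25, and H2-DMa and Ciita stood at −0.73 and −1.12.

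The Kupffer BDL libraries differed among themselves in markers of other class II carrying cells. The B cell markers summed to 24.3, 12.9 and 134 FPKM, against 185, 213 and 217 FPKM in Sham. The dendritic cell markers summed to 49.1, 36.7 and 113 FPKM, against 127, 118 and 121 FPKM in Sham. Replicate 3, with the highest Ciita, had the highest sums of both lists and the lowest sum of Kupffer cell markers, 2182 FPKM against 11070.0 and 7779.7 FPKM. The other 2 replicates did not keep that order, since replicate 2 had more Ciita and fewer of both markers than replicate 1. The part of B and dendritic cells in the Ciita values was not tested.

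**Figure D3:**
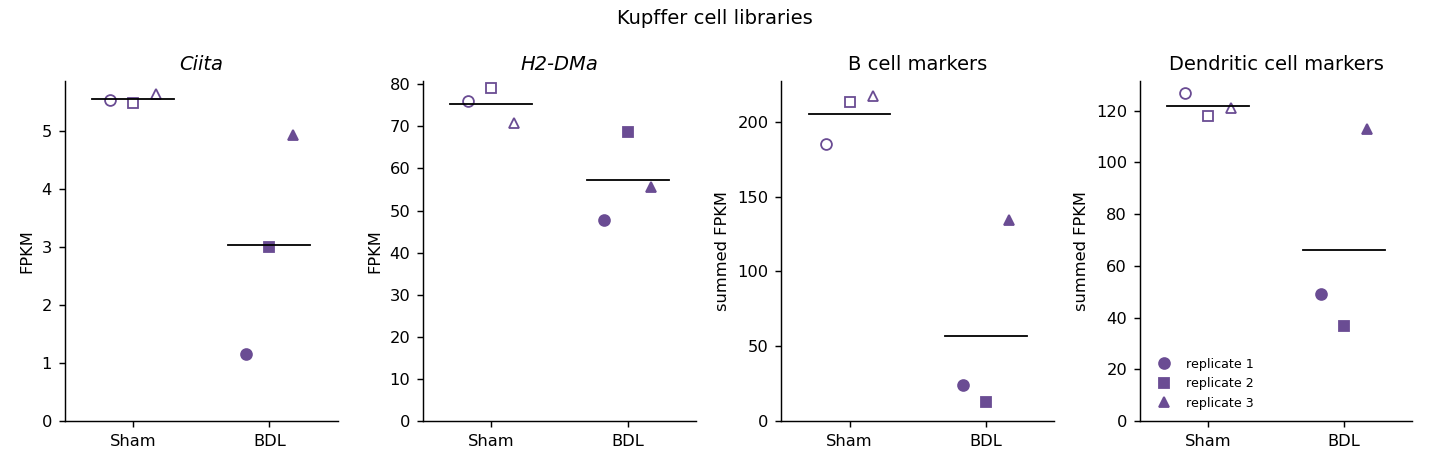
FPKM of Ciita and H2-DMa and summed FPKM of 10 B cell and 11 dendritic cell markers in the 6 Kupffer libraries (vertical axes from 0, lines are means of 3). All BDL values of Ciita and H2-DMa lie below all Sham values, and replicate 3 of the BDL group has the highest Ciita and the highest marker sums.

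**Figure D4:**
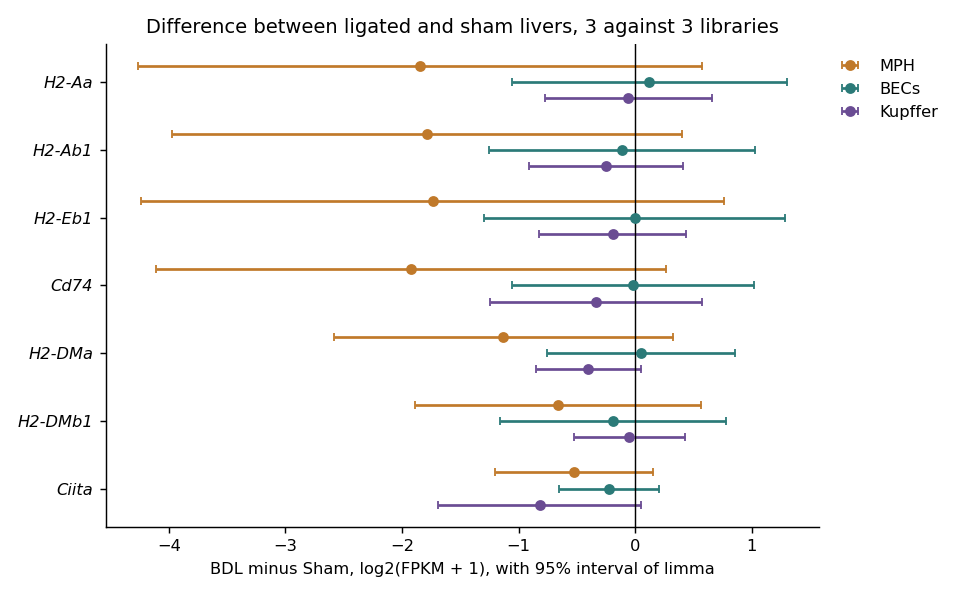
Difference between BDL and Sham in log2(FPKM + 1) for each member and cell type, with the 95% interval from limma over 3 against 3 libraries. Every interval includes 0, and those of MPH are the widest for H2-Aa, H2-Ab1, H2-Eb1, Cd74, H2-DMa and H2-DMb1.

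The response to ligation was not shown to differ between cell types for any member. In the test of the difference itself 0 of 7 members were called for MPH against BECs, beside 1.60% of all genes, 0 of 7 for MPH against Kupffer cells, beside 0.404%, and 0 of 7 for BECs against Kupffer cells, beside 3.50%. The smallest unadjusted limma p among these 21 values was 0.121, for Cd74 between MPH and BECs (log2 difference −1.90, 95% interval −4.40 to 0.59). The second of these comparisons shares title numbers between MPH and Kupffer libraries, and with those numbers as a block 0 of 7 members were still called while the count over all genes went from 57 to 469.

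The balance of the DM partners gave another pattern. H2-DMa to H2-DMb1, the ratio of the DM partners, was 1.63, 1.13 and 1.17 in MPH Sham and 0.990, 0.962 and 0.80 in MPH BDL. In Kupffer cells it was 1.31, 1.21 and 1.19 in Sham and 0.814, 0.948 and 1.17 in BDL. In BECs it was 0.898, 0.966 and 0.876 in Sham and 1.01, 1.05 and 1.22 in BDL. BDL libraries were thus all lower than Sham libraries in MPH and Kupffer cells, and all higher in BECs.

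The log2 differences between BDL and Sham were −0.50 in MPH, −0.35 in Kupffer cells and 0.26 in BECs, and 3 against 3 libraries cannot give an exact permutation p below 0.10 for any of them. The difference between these responses was set against permutations of the operation label within each cell type. It was −0.75 between MPH and BECs and 0.61 between BECs and Kupffer cells (exact permutation test, two-sided, p = 0.00500, the smallest possible, adjusted p = 0.0375 over 15 comparisons of 5 ratios for each). Between MPH and Kupffer cells it was −0.14 (exact permutation adjusted p = 0.938). With 1 library left out the first difference was −0.58 to −0.85 and the second 0.48 to 0.75. There the smallest possible p was still 0.00500, but p was adjusted over fewer comparisons, those that involve the cell type of the left-out library. The exact permutation adjusted p stayed under 0.05, at 0.0250, only without BECs Sham replicate 2, BECs BDL replicate 1 or BECs BDL replicate 2, for both differences. It was 0.10 for the first without MPH BDL replicate 3, and 0.250, 0.200 and 0.200 for the second without Kupffer Sham replicates 1, 2 and 3, and 0.050 without each of the others. This test was chosen after the values had been seen, and its null is no ligation effect in either cell type. A small p from it therefore does not show by itself that the responses differ.

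H2-DMb1 has a close neighbouring copy, H2-DMb2, and reads could be split between them in the counting. H2-DMb2 was at 30.8, 33.3 and 35.3 FPKM in Kupffer Sham and at 5.08, 3.93 and 26.1 FPKM in Kupffer BDL. In BECs it was at 10.9, 8.14 and 9.48 FPKM in Sham and at 20.5, 9.97 and 19.8 FPKM in BDL. The part of this copy, or of the Brd2 overlap of H2-DMa, in the ratio was not tested.

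**Figure D5:**
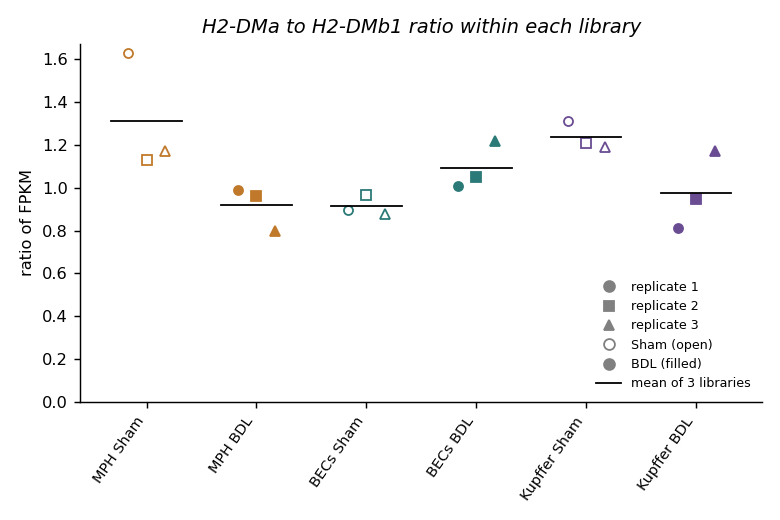
Ratio of H2-DMa to H2-DMb1 FPKM in each of the 18 libraries (vertical axis from 0), with the mean of 3 libraries as a line. BDL libraries lie below Sham libraries in MPH and Kupffer cells and above them in BECs.

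The members moved together from library to library. Over the 18 libraries, which share their groups and scaling, Pearson r of log2(FPKM + 1) among H2-Aa, H2-Ab1, H2-Eb1 and Cd74 was 0.978 to 0.994, and after removal of the 6 group means it was 0.977 to 0.997. H2-DMa and H2-DMb1 had r = 0.966 with each other and 0.957 after removal of the group means. Ciita had r = 0.737 to 0.778 with the other members over the 18 libraries, and 0.32 to 0.445 after removal of the group means. Within a group the transactivator thus tracked the other members less closely than they tracked one another.

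Among 12683 other genes with enough signal, the 10 whose level over the 18 libraries was most like the mean of the members were Pak1 (r = 0.931), Clec10a, Sri, Arhgef3, Srgap2, Plekha2, Tap2, Sec14l1, Ckb and Cxcl10 (r = 0.895). After removal of the group means the 10 were Psmb9 (r = 0.946), Rtp4, Lair1, Nfe2l2, Usp18, Arhgef3, Gatm, Clec12a, Aif1 and Ncf1. Tap2, a subunit of the class I peptide transporter, and Psmb9, an immunoproteasome subunit, belong to the class I pathway, and both genes lie in the same gene complex as the H2 members. The summed markers of some cell types also followed the members over the 18 libraries. There r was 0.855 for dendritic cells, 0.823 for T and NK cells and 0.643 for B cells. After removal of the group means these were 0.607, 0.282 and 0.077. Kupffer cell and sinusoidal endothelial markers had r = 0.048 and 0.290 over the 18 libraries, and 0.669 and 0.611 after removal. Plasma cell and hepatocyte markers went the other way, with r = −0.888 and −0.719, and −0.737 and −0.065 after removal. The remaining lists had r = 0.106 to 0.302, and −0.152 to 0.527 after removal. These likenesses are descriptions of 18 libraries that share their groups.

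The other genes of the pathway were read from lists chosen for this report. Of the remaining class II chain genes, H2-Eb2, H2-DMb2, H2-Oa and H2-Ob were tested in Kupffer cells, and 0 of 4 were called with a median log2 difference of −1.73. H2-DMb2 and H2-Ob had the smallest p, with log2 differences of −1.87 (limma adjusted p = 0.150) and −2.40 (limma adjusted p = 0.151). H2-Ob, whose product with H2-Oa restrains DM, was at 20.1, 21.4 and 22.5 FPKM in Kupffer Sham and at 1.44, 0.831 and 15.9 FPKM in Kupffer BDL, so replicate 3 was again nearest to Sham, as it was for the B cell markers. In BECs 0 of 4 were called, with a median of 0.36.

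Of 10 proteases and helpers that process the invariant chain and antigen, 0 were called in MPH, 1 in BECs and 0 in Kupffer cells. The called gene was Lgmn, an asparaginyl endopeptidase of the endosome, which rose in BECs from 54.2, 51.1 and 72.3 FPKM to 169, 139 and 97.6 FPKM (log2 difference 1.16 ± 0.24, limma adjusted p = 0.0383). Lgmn stood at 568 FPKM on average in Kupffer Sham, against 59.2 FPKM in BECs Sham. In BECs BDL 5 of 8 tested neutrophil markers were called higher (summed FPKM 318 to 473, against 38.3 to 134 in Sham), as were 2 of 7 monocyte markers, F13a1 and Itgam (102 to 265, against 58.5 to 69.9). The part of these cells in the rise was not tested. None of the 8 genes for the factors that bind the X and Y boxes or act beside them was called after ligation in any of the 3 cell types. In MPH and BECs the smallest p of that list was that of Rfxank. Its log2 differences were −0.93 (limma adjusted p = 0.0746) and −0.57 (limma adjusted p = 0.0567). In Kupffer cells the smallest was that of Nfya, at −0.60 (limma adjusted p = 0.0566), and Rfxank stood at −0.39 (limma adjusted p = 0.158).

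Of 17 genes of interferon gamma signalling and other regulators of Ciita, 0 of the 15 tested in MPH were called, and the called genes described here were Socs1 and Gbp3 in Kupffer cells and Irf4 in BECs. Socs1, an inhibitor of interferon gamma signalling and one of its targets, fell in Kupffer cells from 21, 24.9 and 30 FPKM to 11.5, 4.55 and 5.78 FPKM (−1.74 ± 0.32, limma adjusted p = 0.0457). Gbp3, an interferon-induced GTPase, fell there by 0.87 on the log2 scale (limma adjusted p = 0.0348). In the same comparison 5 of 12 sinusoidal endothelial markers were called lower (summed FPKM 545 to 1374, against 1799.7 to 2188 in Sham), and the T and NK cell markers summed to 25.1 to 123 FPKM, against 122 to 163 FPKM. The part of these cells in the Socs1 and Gbp3 values was not tested. Irf4, a factor of activated lymphocytes and dendritic cells, rose in BECs from 3.52, 1.89 and 2.62 FPKM to 9.70, 7.47 and 10.7 FPKM (1.5 ± 0.21, limma adjusted p = 0.0146). The Irf4 response was larger in BECs than in Kupffer cells by 2.46 (limma adjusted p = 0.0386) and larger than in MPH, by a log2 difference of −1.58 for MPH minus BECs (limma adjusted p = 0.0402). Beside the neutrophil and monocyte markers, Cd3e was called higher in BECs BDL, and the dendritic cell markers summed to 72.5 to 149 FPKM, against 54.7 to 63.4 FPKM in Sham. Their part in the Irf4 values was not tested.

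Of the 8 costimulation genes, only Cd80, a ligand of CD28 and CTLA4 on T cells, was called, and only in Kupffer cells. It rose there from 3.48, 3.42 and 4.97 FPKM to 8.53, 12.8 and 9.53 FPKM (1.18 ± 0.20, limma adjusted p = 0.0412). Whether that response differs between cell types is answered by the test of the difference, which called no costimulation gene. Of the trafficking genes, 4 of 8 listed symbols are in the table, and Cd9, a tetraspanin found in class II carrying membranes, rose in MPH from 12.3, 13.8 and 14.8 FPKM to 50.2, 56.5 and 67.8 FPKM (2.01 ± 0.20, limma adjusted p = 0.0146). The rise was larger than in BECs by 1.82 (limma adjusted p = 0.00730). In Kupffer cells Cd9 differed by 0.33 (limma adjusted p = 0.581), and the test of MPH against Kupffer responses called no trafficking gene. Cd9 stood at 99.0 FPKM on average in BECs Sham, and in MPH BDL the biliary markers summed to 71.2 to 75.4 FPKM, against 26.3 to 52.5 FPKM in Sham, with Krt7 called higher. The stellate and fibroblast markers summed to 166 to 338 FPKM, against 65.5 to 144 FPKM, and the monocyte markers F13a1 and Chil3 were called higher. The part of these cells in the Cd9 rise was not tested. None of 17 class I presentation genes was called after ligation in MPH, BECs or Kupffer cells, with medians of −0.54, −0.29 and −0.32.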

How the data were processed

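The deposited table holds FPKM for 54532 genes in 18 libraries. Per the submitters' processing notes, the authors used CASAVA 1.8, fastp, HISAT2 2.0.5, featureCounts 1.5.0-p3 and DESeq2 1.20.0 with GRCm38 (mm10), and the role and settings of each, the annotation release and the gene lengths are not stated there. Groups came from the treatment and cell line labels.

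Differences were tested with limma 3.58.1 (R 4.3.3, empirical Bayes with trend and robust) on log2(FPKM + 1), among genes with at least 1 FPKM in at least 3 libraries of the comparison. A difference on this scale understates the change of low genes. BDL against Sham was fitted in 6 libraries, responses in 12, and cell types in the 9 libraries of an operation. All 7 members passed the filter in every comparison. Ratios were tested by exact permutation (Python 3.11.15). The steps were tested on simulated data. Reads were recovered from value steps with exon lengths of GENCODE M21. Of values below 200 reads, 97.4% to 98.4% per library were within 0.02 of a whole number. For 6 members another length gave whole reads, so reads are quoted for Ciita only.

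The members and lists were chosen with earlier results of these data known. All 7 members are named. List genes are named mainly where called after ligation, and for some lists without a call by the smallest p. Class II genes are also named with their promoters or with a ratio. Most list genes called between cell types are not named. A result for 1 list gene is not reported here. The numbers in the sample titles are shared by 3 pairs of MPH and Kupffer libraries. Their deviations from the group means correlated (r = 0.23, 0.34 and 0.30 over 14097 genes), so they were used as a replicate block (statmod 1.5.0) where at least 2 numbers were shared.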

Additional observations from a re-analysis of the deposited data

Results flagged for a closer look

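The response of the H2-DMa to H2-DMb1 ratio to ligation was flagged by a permutation of the operation label within each cell type. The null of that permutation is no ligation effect in either cell type, so it does not test whether the responses are equal. The response was lower in MPH than in BECs, with a log2 difference of −0.75, and higher in BECs than in Kupffer cells, with a log2 difference of 0.61. Both had the smallest p that the exact permutation test can give (p = 0.00500, adjusted p = 0.0375 over 15 comparisons), in a design of 3 against 3 libraries per cell type. The comparison was chosen after the values had been seen.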

How the results depend on the processing

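Of 1445 values of members under other settings, 1259 kept their direction and side of the threshold, 61 stayed uncalled with a changed sign, 64 were no longer called, 19 became called, 42 moved and 0 called values reversed. Uncalled values changed sign 70 times in all, 44 of them with a library left out. The counts of members called changed under several settings, of which the following are examples. Quantile normalization is not among them, though it changed calls too. Between MPH and BECs it added H2-DMb1 and Cd74 in Sham livers and H2-DMa and H2-DMb1 in BDL livers, and it removed Ciita in both. Between BECs and Kupffer cells in Sham livers it added H2-DMb1. Over all genes it called 8573 of 14466, 6659 of 14210 and 7279 of 14466 in these comparisons. Between MPH and BECs in Sham livers 1 was called with all 18 libraries in 1 model, beside 8259 of 14466 genes. At a common FPKM sum 6 were called, beside 10915 of 15099 genes. Between MPH and Kupffer cells in Sham livers 4 were called with no filter, beside 7496 of 39307 genes. With all 18 libraries in 1 model 4 were called, beside 7998 of 14466 genes. Between BECs and Kupffer cells in Sham livers 1 was called with no filter, beside 6173 of 39307 genes. At a common FPKM sum 1 was called, beside 6671 of 15099 genes. Scaled to recovered reads, a setting chosen after seeing the data, 1 was called, beside 6631 of 14758 genes. Between MPH and BECs in BDL livers 7 were called at a common FPKM sum, beside 9806 of 14784 genes, and 7 scaled to recovered reads, beside 8521 of 14433 genes. Between MPH and Kupffer cells in BDL livers 2 were called with no filter, beside 2545 of 33433 genes. The cause was not tested.

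With 1 library left out, the counts in Sham livers were 3 to 5 (MPH and BECs), 4 to 7 (MPH and Kupffer) and 1 to 3 (BECs and Kupffer). In BDL livers they were 0 to 6 (MPH and BECs) and 2 to 7 (MPH and Kupffer), and for Kupffer BDL against Sham 0 to 1. Over all genes the fits called 4345 to 7054 and 2610 to 4368 in those BDL comparisons. For Kupffer BDL against Sham they called 0 to 2272. The log2 difference of the Cd74 to H2-Ab1 ratio between MPH and Kupffer cells was 0.09 to 0.22, that of H2-DMa to H2-Ab1 was 0.42 to 0.93, and that of H2-Eb1 to H2-Ab1 −0.41 to −0.27. Between BECs and Kupffer cells that of H2-Eb1 to H2-Ab1 was 0.25 to 0.32 and that of H2-DMa to H2-Ab1 −1.10 to −0.95, and the responses of H2-DMa to H2-DMb1 were −0.85 to −0.58 (MPH minus BECs) and 0.48 to 0.75 (BECs minus Kupffer).

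With the title number as replicate block, 4, 7 and 2 members were called in the Sham comparisons and 0 in the response of MPH minus Kupffer, so no call of a member changed. Over all genes 8429, 8911 and 6416 of 14466 were called in those Sham comparisons. The block could not be fitted for the other comparisons, which share fewer than 2 numbers. Depth limits Ciita most, with 18 reads in MPH BDL replicate 3.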
